A study of Mus musculus with 3 samples.

Results

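Transcripts of the S100 calcium-binding protein family were followed in primary tumor cell cultures treated with RANKL (RL). The 10 genes S100a1, S100a4, S100a6, S100a8, S100a9, S100a10, S100a11, S100a13, S100a14 and S100a16 were taken as members, by matching the accession of each probe to a gene symbol, out of 36799 genes and transcripts on the array. They had 13 probes, 2 each for S100a1, S100a4 and S100a16 and 1 each for the others, and another 8 S100 genes had 9 probes. The cultures came from 3 tumors of mmtv-PyMT mice (tumors 1, 2 and 3), in which the MMTV promoter drives the polyoma middle T oncogene in the mammary epithelium. The strain and age of these mice were not given with the samples. For acinar cultures, the study's methods describe cells of RANK+/+ or RANK−/− tumor transplants placed on Matrigel, with RL given 24 h later. For each tumor, a culture with RL for 24 h and an untreated control culture, both grown in DMEM F12 with serum, cholera toxin, insulin and EGF, were hybridized together on 1 two-color Agilent array. RL was labeled with Cy3 for tumors 1 and 3 and with Cy5 for tumor 2, so the dye order differed between tumors and no tumor was hybridized in both orders. The study's methods speak of dye swaps for every sample, and the deposited arrays hold 1 array per tumor. The labels give the dose of RL as 1000 µg/mL and the methods as 1 µg/mL. The 3 arrays lay on 1 slide, and their number limits the precision of every value. Each array held 59305 probe spots, with a median spot intensity of 42 to 45 in Cy3 over a local background of 31 to 36, and of 96.5 to 100.5 in Cy5 over a local background of 70 to 73.

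S100 proteins carry a pair of EF-hand calcium-binding loops, act mostly as dimers, and bind target proteins when calcium is raised. S100a8 and S100a9 form the heterodimer calprotectin, which is abundant in the cytosol of neutrophils, is also made by stressed epithelia, and is sensed outside the cell by Tlr4 and by Ager, the receptor for advanced glycation end products. Other members bind annexins, myosin or ubiquitin ligase components inside the cell, and several are abundant in epithelia. In the plan of the comparison, S100a8 and S100a9 were set against 7 genes counted as epithelial S100 genes (S100a1, S100a6, S100a10, S100a11, S100a13, S100a14 and S100a16), and S100a4, best known from fibroblasts and motile tumor cells, was kept apart.

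All 10 members were well above background in all 6 channels, so the filter on dim probes removed none of them. Tested with limma over 21743 genes and transcripts, 0 of the 10 members passed an adjusted p of 0.05, while 6 of all genes did (0.0276%). An unadjusted p under 0.05 was reached by 1 member, S100a8, and by 7.16% of all genes. A rank product at a proportion of false positives (pfp) of 0.05 called 0 of the 10 members and 0.401% of all genes, and limma with a term for the dye called 0 of the 10 and 1.05%. With tumor 2 left out, whose array alone carried RL in Cy5, limma called 1 member, S100a11, at an adjusted p of 0.0441 and a mean log2 ratio of −0.29, together with 494 higher and 793 lower genes. The mean log2 ratio of RL over control was below 0 for 7 members and above 0 for 3, and the median of the 10 was −0.13 beside −0.00055 over all genes. When each array was centered on its median in place of loess, all 10 were below 0, but the median of all genes then moved to −0.11, and 8 of the 10 lay below it. Below 0 in all 3 tumors were S100a1, S100a9 and S100a13, 3 of the 10 members against 13.3% of all genes, and above 0 in all 3 were S100a4 and S100a10, 2 of the 10 against 14.2%. With 10 members, these shares differ from those of all genes by 2 genes or fewer in each direction. As a check on the treatment, 6 NF-κB response genes were read in the same RNA. These genes, Nfkbia, Nfkb2, Relb, Birc3, Icam1 and Traf1, were above 0 in all 3 tumors, with a median log2 ratio of 1.15 in tumor 1, 0.45 in tumor 2 and 0.24 in tumor 3. In limma 0 of the 6 passed the adjusted p of 0.05 without a dye term and 6 with it, 6 were at an unadjusted p under 0.05, and rank product called 3.

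**Figure D1:**
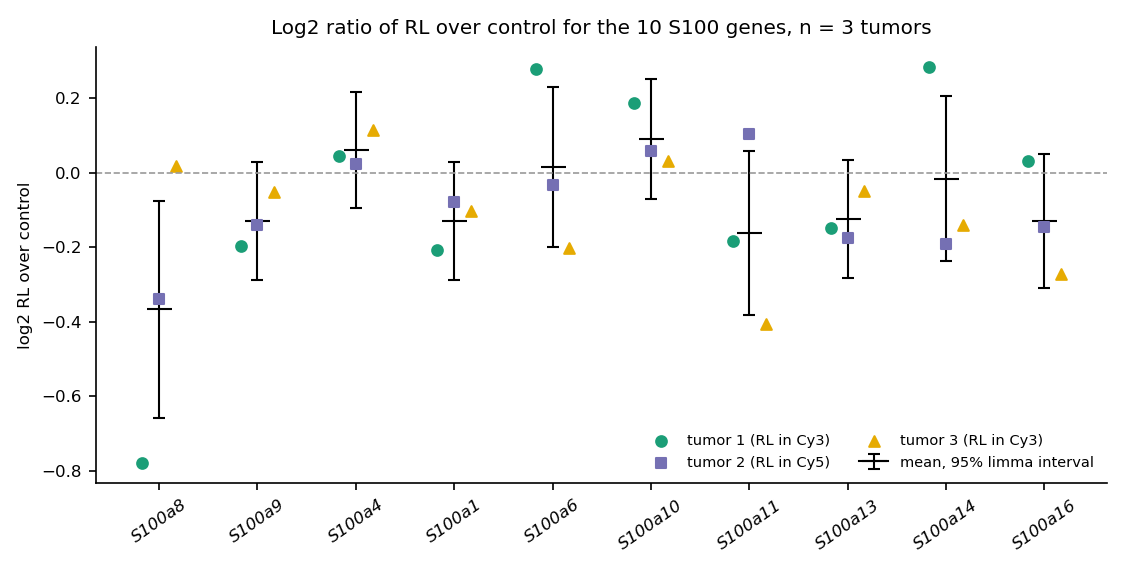
Log2 ratio of RL over control (y axis) of each S100 gene (x axis) in tumors 1, 2 and 3 (circles, squares and triangles), with the mean and the 95% limma interval as black bars, n = 3 tumors. S100a8 has the lowest mean, −0.37, and its interval, which is not adjusted for the number of genes, lies below 0.

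S100a8, the smaller calgranulin, had the lowest mean ratio of the members with all 3 tumors, though not without tumor 1. Its normalized log2 intensity in tumor 1 was 13.31 in the control and 12.53 with RL. In tumor 2 it was 13.38 in the control and 13.04 with RL. In tumor 3 it was 12.06 in the control and 12.08 with RL. The RL culture was thus the lower of the pair in tumors 1 and 2, and the pair of tumor 3 lay together at a level below both RL cultures of the other tumors. The log2 ratios were −0.78, −0.34 and 0.02, with a mean of −0.37 (0.775-fold, 95% limma interval −0.66 to −0.08, n = 3 tumors) and an adjusted p of 0.572 by limma. Over the alternatives the adjusted p ran from 0.055 to 1.0, with 0.104 when a dye term was fitted. The mean rested on tumor 1: it was −0.16 without tumor 1, where S100a16 was lower at −0.21, and −0.56 without tumor 3. The mean of the arrays with RL in Cy3 was −0.38 and the array with RL in Cy5 gave −0.34, a difference of −0.04, although the arrays with RL in Cy3 lay far apart themselves (−0.78 and 0.02).

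S100a9, the partner of S100a8 in calprotectin, was read by a single probe, which carries the accession of 1 of its 2 RefSeq transcripts. In tumor 1 it stood at 7.76 in the control and 7.57 with RL. In tumor 2 it stood at 10.35 in the control and 10.21 with RL, and in tumor 3 at 9.77 and 9.72. The RL culture was the lower of the pair in every tumor, by little, whereas the tumors stood far apart. The log2 ratios were −0.20, −0.14 and −0.05, with a mean of −0.13 (95% limma interval −0.29 to 0.03) and an adjusted p of 0.772 by limma. In raw intensity, tumor 1 had a spot median of 267 in the control over a local background of 70, and 117 with RL over 32, dimmer than on the other arrays. In tumor 2 the spot medians were 911 over 38 and 1587 over 74, and in tumor 3 they were 1208 over 72 and 646 over 40.

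**Figure D2:**
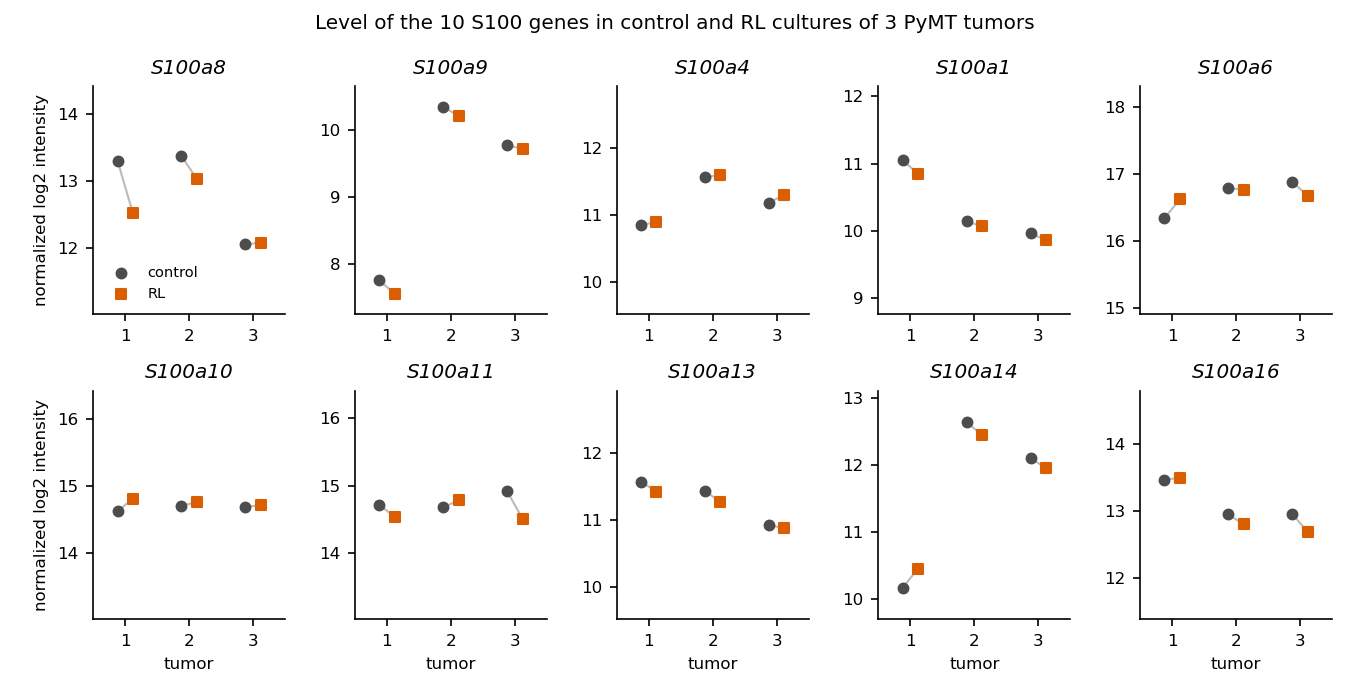
Normalized log2 intensity (y axis, 3.4 units in every panel) of each S100 gene in the control (gray circles) and RL (orange squares) cultures of tumors 1, 2 and 3 (x axis), with a line joining the cultures of a tumor. S100a4, S100a6, S100a9 and S100a14 are lowest in tumor 1 in both cultures, and S100a8 is lower with RL in tumors 1 and 2.

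The calgranulin genes are neighbors on mouse chromosome 3, with no gene between them in the RefSeq table of GRCm38.p6, and they are shown here because the comparison turns on them. The table of promoters, 250 bases before to 50 bases after the annotated start, held 8 of the 10 members, and S100a10 and S100a14 had no entry. In these windows, capitals mark TATAAA and the C/EBP motif TTNNGNAA, searched on both strands.
S100a8 (GRCm38.p6, chr3:90668821-90669120, plus strand): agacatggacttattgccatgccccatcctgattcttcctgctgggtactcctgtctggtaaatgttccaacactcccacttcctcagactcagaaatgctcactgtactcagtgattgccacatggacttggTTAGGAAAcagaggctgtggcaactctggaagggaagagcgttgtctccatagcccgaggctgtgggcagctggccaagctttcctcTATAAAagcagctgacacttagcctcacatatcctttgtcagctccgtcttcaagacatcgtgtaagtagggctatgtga
S100a9 (GRCm38.p6, chr3:90695672-90695971, minus strand): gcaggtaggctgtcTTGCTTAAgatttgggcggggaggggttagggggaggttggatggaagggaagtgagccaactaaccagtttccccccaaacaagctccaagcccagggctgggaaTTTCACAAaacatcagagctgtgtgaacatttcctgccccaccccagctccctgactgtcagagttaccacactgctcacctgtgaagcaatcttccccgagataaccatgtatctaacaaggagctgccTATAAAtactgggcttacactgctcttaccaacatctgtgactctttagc
TATAAA began 30 bases before the annotated start of S100a8 and at the annotated start of S100a9. Among the 8 members it was also present for S100a4, 31 bases before the start, and 13.6% of the 32851 promoter windows held it. TTNNGNAA occurred once for S100a8 and at 2 places for S100a9, in none of the other 6 members, and in 40.7% of all windows. The AP-1 motif TGANTCA was found for S100a11 and S100a16 (7.81% of all windows). The STAT motif TTCNNNGAA (8.3%) and the NF-κB motif (8.46%) were found for none of the 8. A match of letters is a description of the window and not of a bound site.

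Set against the epithelial S100 genes within each array, S100a8 and S100a9 had the lower ratios in tumors 1 and 2 and the higher ratio in tumor 3. In tumor 1 the mean log2 ratio of S100a8 and S100a9 was −0.49 and the median of the 7 epithelial S100 genes 0.03. In tumor 2 the corresponding values were −0.24 and −0.08, and in tumor 3 −0.02 and −0.14. The differences were therefore −0.52, −0.16 and 0.12, with a mean of −0.19 and an SD of 0.32 between tumors. They had no common sign, and their mean was smaller in size than their SD. Taken instead from the mean ratio of each gene over the tumors, the difference was −0.12. S100a8 accounted for most of it, with differences from the epithelial median of −0.81, −0.26 and 0.16, against −0.23, −0.06 and 0.09 for S100a9. Without tumor 1 the difference taken from the genes' mean ratios was −0.01, and without tumor 3 it was −0.32.

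**Figure D3:**
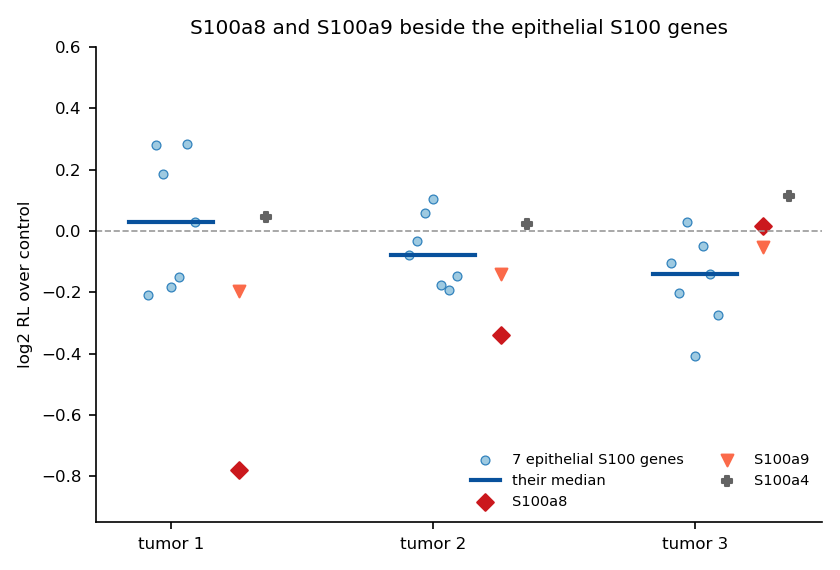
Log2 ratio of RL over control (y axis) in each tumor (x axis) for the 7 epithelial S100 genes (blue circles, median as a bar), S100a8 (diamonds), S100a9 (triangles) and S100a4 (crosses). S100a8 is apart from the others in tumor 1, at −0.78, and within their range in tumor 3, at 0.02.

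S100a10 and S100a11, which bind annexin A2 and annexin A1, had nearly the same level in all 3 tumors. S100a10 stood at 14.63 and 14.82 in the control and RL cultures of tumor 1, at 14.71 and 14.77 in tumor 2 and at 14.69 and 14.72 in tumor 3. Its log2 ratios were 0.19, 0.06 and 0.03, with a mean of 0.09 (95% limma interval −0.07 to 0.25, adjusted p of 0.849), although it was −0.11 with median centering, which is 0.01 above the median of all genes there. S100a11 stood at 14.71 and 14.53 in tumor 1, at 14.67 and 14.78 in tumor 2 and at 14.91 and 14.51 in tumor 3. Its ratios of −0.18, 0.10 and −0.41 had a mean of −0.16 (adjusted p of 0.791) and followed the dye order, as RL was lower on both arrays with RL in Cy3 and higher on the array with RL in Cy5. The S100a11 mean was −0.29 without tumor 2 and −0.04 without tumor 3. The mean with RL in Cy3 differed from the value with RL in Cy5 by −0.40 for S100a11, the largest such difference among the members in size, and by −1.24 for the reference gene Actb, whose ratios were −0.65, 0.57 and −0.70. The probes of Gapdh disagreed: the brightest had ratios of −0.36, 0.19 and −0.57, and 3 of the 7 had the opposite signs in tumors 1 and 2. Dye order and tumor cannot be told apart here, since each tumor was hybridized in 1 order.

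S100a6, or calcyclin, which binds Cacybp and annexin A11, and S100a14, a gene of stratified and glandular epithelia, had ratios that changed sign between tumors. S100a6 was at 16.34 in the control and 16.62 with RL in tumor 1, at 16.80 and 16.76 in tumor 2, and at 16.88 and 16.68 in tumor 3. The ratios were 0.28, −0.03 and −0.20, with a mean of 0.01 (95% limma interval −0.20 to 0.23), which turned to −0.21 with median centering. S100a14 was at 10.17 and 10.46 in tumor 1, at 12.63 and 12.44 in tumor 2 and at 12.10 and 11.95 in tumor 3. Its ratios were 0.28, −0.19 and −0.14, with a mean of −0.02 (95% limma interval −0.24 to 0.21), and the mean was 0.05 with the scanner software's processed signals. For both genes RL was the higher culture in tumor 1 only. S100a16 was likewise at or above its control only in tumor 1, with ratios of 0.03, −0.15 and −0.27 (mean −0.13, adjusted p of 0.795), and its second probe gave 0.13, −0.21 and −0.08.

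S100a1, best known from striated muscle, and S100a13, which takes part in the release of proteins that lack a signal peptide, were below 0 in all 3 tumors. S100a1 stood at 11.05 in the control and 10.84 with RL in tumor 1, at 10.14 and 10.06 in tumor 2 and at 9.96 and 9.86 in tumor 3. S100a13 stood at 11.57 and 11.42 in tumor 1, at 11.43 and 11.26 in tumor 2 and at 10.92 and 10.87 in tumor 3. Both genes were highest in tumor 1 and lowest in tumor 3. The log2 ratios of S100a1 were −0.21, −0.08 and −0.10 (mean −0.13, 95% limma interval −0.29 to 0.03, adjusted p of 0.768), and its other probe gave −0.07, −0.06 and −0.26. Those of S100a13 were −0.15, −0.17 and −0.05 (mean −0.12, 95% limma interval −0.28 to 0.03, adjusted p of 0.777). These genes lie side by side at the head of the S100 group on chromosome 3 and are read outward from a common stretch, and the promoter window of S100a13 is shown for that reason, with the 204 bases that it shares with the window of S100a1 in capitals.
S100a13 (GRCm38.p6, chr3:90514185-90514484, plus strand): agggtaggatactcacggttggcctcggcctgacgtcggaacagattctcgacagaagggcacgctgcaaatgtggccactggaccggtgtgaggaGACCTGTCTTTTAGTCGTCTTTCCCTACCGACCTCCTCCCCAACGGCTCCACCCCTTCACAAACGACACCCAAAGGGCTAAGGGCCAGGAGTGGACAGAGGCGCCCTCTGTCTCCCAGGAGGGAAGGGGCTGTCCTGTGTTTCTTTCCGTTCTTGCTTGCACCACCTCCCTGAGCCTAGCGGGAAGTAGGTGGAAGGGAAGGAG
The S100a1 window is chr3:90514281-90514580 on the minus strand, and none of the 5 motifs was found in either window.

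S100a4, which binds the nonmuscle myosin heavy chain Myh9 and marks fibroblasts and motile tumor cells, was above 0 in all 3 tumors with its brighter probe. It stood at 10.85 and 10.89 in the control and RL cultures of tumor 1, at 11.56 and 11.59 in tumor 2 and at 11.18 and 11.29 in tumor 3. The ratios were 0.04, 0.02 and 0.11 (mean 0.06, 95% limma interval −0.09 to 0.22, adjusted p of 0.90). The other S100a4 probe gave −0.02, 0.02 and −0.05, and the mean of the brighter probe was −0.05 with median centering, which is 0.06 above the median of all genes there. The probes of S100a4 therefore disagreed in sign in tumors 1 and 3.

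For most members, as for most genes, the tumors differed more from each other than RL differed from control. The level of a gene in a tumor, taken as the mean of its cultures, spanned a larger log2 range over the 3 tumors than the largest RL change in size for 8 of the 10 members, the exceptions being S100a10 and S100a11, beside 69.9% of all genes. S100a9 had the widest range, 2.62, with levels of 7.66, 10.28 and 9.75. S100a14 followed with 2.23 and levels of 10.31, 12.54 and 12.03. Among all genes tested, these ranges stood at percentiles 99.2 and 98.7, and the median range was 0.27. S100a8 (1.13, percentile 94.2) and S100a1 (1.04, percentile 93.1) were the other members with a range above 1, which makes 4 of the 10 beside 7.39% of the 21721 genes measured on all arrays. At the other end, S100a10 had a range of 0.03, at percentile 1.5, and S100a11 of 0.10, at percentile 13.3. Each tumor was read on a single array, so these differences have no replicates and were not tested.

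S100a4, S100a6, S100a9 and S100a14 were lowest in tumor 1 in both cultures, and S100a8 was not. Between tumors 1 and 2, S100a9 was lower in tumor 1 by a log2 difference of −2.59 in the control cultures and −2.64 in the RL cultures, and S100a14 by −2.46 and −1.99. For S100a8 the same differences were −0.07 and −0.51. The probes for the partners of calprotectin thus separated the tumors differently: S100a9 was 6.13-fold lower in tumor 1 than in tumor 2, S100a8 1.22-fold. S100a8 instead had its lowest level in tumor 3, 2.19-fold below tumor 2, where S100a9 was 1.45-fold below tumor 2. S100a1, S100a13 and S100a16 were highest in tumor 1, S100a16 with levels of 13.48, 12.88 and 12.83. With the other settings for signals and background, chosen after seeing the data, the S100a9 difference between tumors 1 and 2 ran from −3.00 to −2.61 and that of S100a14 from −2.26 to −2.24.

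**Figure D4:**
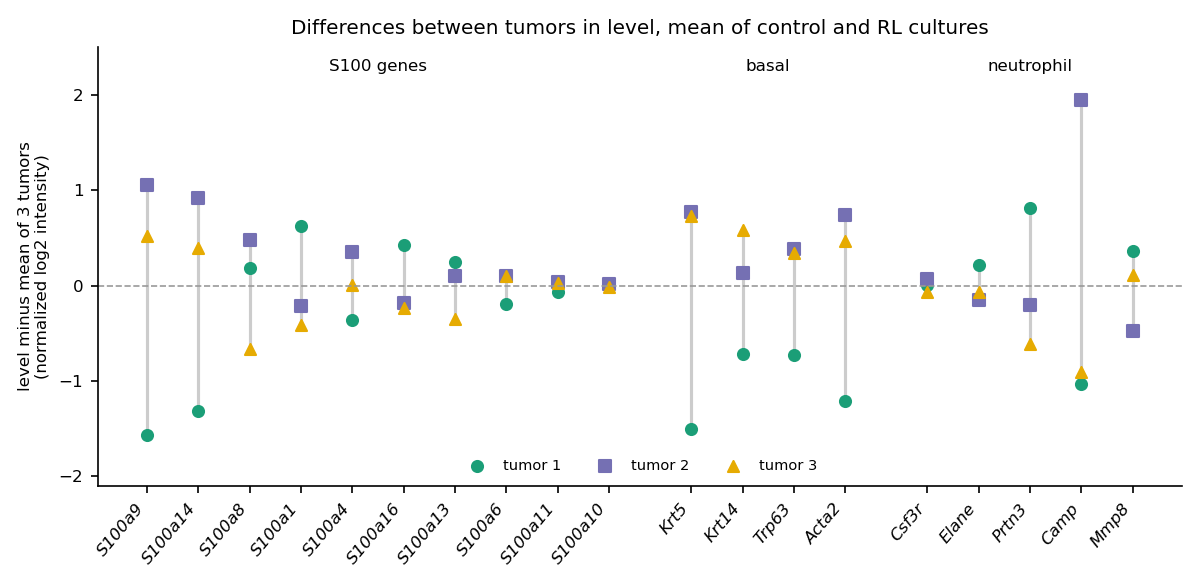
Level in each tumor minus the mean of the 3 tumors (y axis, normalized log2 intensity, mean of control and RL cultures) for the 10 S100 genes, 4 basal epithelial markers and the 5 neutrophil markers that were tested (x axis). Circles, squares and triangles are tumors 1, 2 and 3. S100a9, S100a14 and the 4 basal markers, each by the probe that stood for it, are lowest in tumor 1, and a second Trp63 probe, not drawn, is not.

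Of the 4 basal epithelial markers, Krt5, Krt14 and Acta2 were lowest in tumor 1, as S100a9 and S100a14 were, with log2 differences from tumor 2 of −2.28, −0.85 and −1.95. The probes of Trp63 disagreed: the probe that stood for the gene was also lowest in tumor 1 (10.74, 11.85 and 11.81), and the other was nearly level and highest there (11.29, 11.25 and 11.24). The summed intensity of the 4, as log2, was 15.03 and 15.06 in the control and RL cultures of tumor 1, 16.10 and 15.97 in tumor 2 and 16.60 and 16.19 in tumor 3, and the brightest probe was that of Krt14. In this sum and those below, probes differ in response, so a bright probe weighs most and need not mark the most abundant transcript. The 8 luminal markers were all well above background, as a mammary epithelial culture calls for, and the Krt18 probe was the brightest. Their sums were 18.45 and 18.23, 17.89 and 18.04, and 18.75 and 18.40. These sums moved with Krt18, whose ratios were −0.72, 0.42 and −0.70. Its mean with RL in Cy3 differed from its value with RL in Cy5 by −1.13. All other luminal markers were above 0 in tumor 1 and below 0 in tumor 2, and the medians of the 8 were 0.20, −0.17 and −0.05. Of the basal and luminal markers, 0 of 12 passed the adjusted p of 0.05 in limma between RL and control and 0 reached an unadjusted p under 0.05, with median log2 ratios of −0.11 and −0.02. Fewer basal cells and less RNA per cell cannot be told apart in RNA from a whole culture, and the part of these markers in the levels of S100a9 and S100a14 was not tested.

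S100a8 and S100a9 are also neutrophil genes. Of 10 neutrophil markers, Cxcr2, Mpo, Ngp and Retnlg were not well above background in enough channels to be tested, and Ly6g had no named probe. The 5 that were tested were Csf3r, Elane, Prtn3, Camp and Mmp8, with 0 past the adjusted p of 0.05 in limma. An unadjusted p under 0.05 was reached by 2, Prtn3 and Mmp8, beside 7.16% of all genes. Mmp8 passed the filter only through its control cultures, the group where it was higher, so nothing is read from its ratio. The summed intensity of the 5 was 15.29 and 15.44 in tumor 1, 15.43 and 15.45 in tumor 2 and 15.32 and 15.24 in tumor 3, almost all of it from the Csf3r probe. Whether that probe, very bright in every culture, also reads other transcripts was not tested, and the sum says little of the other 4 markers. Prtn3, a neutrophil granule protease, had ratios of −0.65, −0.49 and −0.33 (mean −0.49, adjusted p of 0.126), and passed with a dye term (adjusted p of 0.000963) and by rank product (pfp of 0.0204). Camp, which encodes the granule peptide cathelicidin, was at 6.89, 9.87 and 7.02 in tumors 1, 2 and 3, high in tumor 2 alone. Prtn3 (9.10, 8.09 and 7.68), Elane (8.83, 8.46 and 8.54) and Mmp8 (7.05, 6.22 and 6.80) were highest in tumor 1, where S100a9 was lowest. The tested neutrophil markers thus had no common order over the tumors. The part of neutrophils in the S100a8 and S100a9 values was not tested.

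Markers of other lineages were read in the same way. Of 8 macrophage markers 7 were tested, with an Itgam probe the brightest, Cx3cr1 not well above background, and sums of 12.86 and 12.75, 12.80 and 12.92, and 13.01 and 12.90 in the 3 tumors. That Itgam probe weighed most (12.18, 12.48 and 12.34). Other Itgam probes were much dimmer, at 6.43, 6.31 and 6.28 and at 6.68, 6.42 and 6.69. By the probes that stood for them, all tested macrophage markers but Itgam were lowest in tumor 2, among them Csf1r (10.01, 9.60 and 10.53) and Cd68 (9.77, 8.91 and 9.59). All 8 fibroblast markers were tested, with the Col1a1 and Col1a2 probes the brightest and sums of 13.24 and 12.97, 12.14 and 12.25, and 14.19 and 14.16. The sums were lowest in tumor 2, where S100a4, also a fibroblast gene, was highest, but Pdgfra was highest in tumor 2 (7.87, 8.80 and 8.14), and Pdgfrb and Lum were lowest in tumor 1. Of 5 endothelial markers 2 were tested, with a Kdr probe the brightest and sums of 11.03 and 11.18, 11.05 and 10.997, and 10.84 and 11.02. These sums came mostly from that probe (10.99, 10.91 and 10.81). The other Kdr probe, much dimmer, stood at 6.62, 6.30 and 7.31, highest in tumor 3. Tek was not well above background in any channel. Cdh5 and Emcn were above background in 1 channel of each condition, those of tumor 3, and were not tested. None of the 17 markers tested in these lists passed the adjusted p of 0.05 in limma between RL and control. An unadjusted p under 0.05 was reached by 2 of them, Cd68 and Pdgfra, beside 7.16% of all genes. Ptprc passed the filter only through its RL cultures, the group where its mean was higher, so nothing is read from its ratio. The part of these lineages in the S100 values was not tested.

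The rest of the family added little to the response. Of the 8 other S100 genes, 6 were tested and 0 passed the adjusted p of 0.05 in limma. An unadjusted p under 0.05 was reached by 1, S100g, beside 7.16% of all genes. S100g, the vitamin D-dependent calbindin, had ratios of −0.40, −0.03 and −0.24 (mean −0.22, adjusted p of 0.643). Its probe was dim, with levels of 7.02, 6.85 and 6.86. The other S100g probe, which did not pass the filter, gave −0.55, −0.13 and 0.05, with the opposite sign in tumor 3. S100b, a gene of glia and Schwann cells, had ratios of −0.52, −0.07 and 0.02, furthest below 0 in tumor 1 like S100a8, and its level was likewise lowest in tumor 3 (8.38, 9.18 and 7.47). The mean ratios of S100a2, S100a3, S100a5 and S100z lay between −0.08 and 0.06. S100a7a and S100a7l2 were not well above background in any channel. Of the S100 fused-type genes, which join an S100 domain to a long repeat and serve the cornified layer, Tchh alone was tested (mean −0.12), Flg had no named probe, and Flg2, Hrnr, Rptn, Tchhl1 and Crnn were not well above background.

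The receptors of calprotectin were partly present. Tlr4 had ratios of −0.16, −0.20 and 0.07 (mean −0.10) and Bsg, or basigin, −0.07, −0.21 and −0.07 (mean −0.12). Ager and Cd36 were above background in 2 channels of each condition and were not tested. All 8 intracellular partners were tested, with 0 past the adjusted p of 0.05 in limma, 0 at an unadjusted p under 0.05 and a median of 0.04. Their means ran from −0.06 for Myh9, the partner of S100a4, to 0.09 for Anxa1, the partner of S100a11, whose dimmer probe gave 0.26, −0.21 and −0.11. Anxa2, which holds S100a10 in a complex, had ratios of −0.25, 0.58 and −0.43, the sign pattern of S100a11 and Actb. Cacybp, Sugt1 and Anxa11, which bind S100a6, had means of 0.05, 0.06 and −0.01, Anxa6 0.05 and Ahnak 0.02.

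Named genes whose 3 ratios lay nearest to those of S100a8 were Wfdc17 (−0.74, −0.29 and −0.04, Euclidean distance 0.08), Gsta3 (distance 0.11) and 2310057J18Rik (distance 0.13). Those nearest to S100a9 were Frmd4a, Foxc2 and Stkld1, at distances of 0.01, 0.02 and 0.02. With 3 arrays such neighbors are many for a gene with ratios as small as those of S100a9, and nearness says nothing of shared function.

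**Figure D5:**
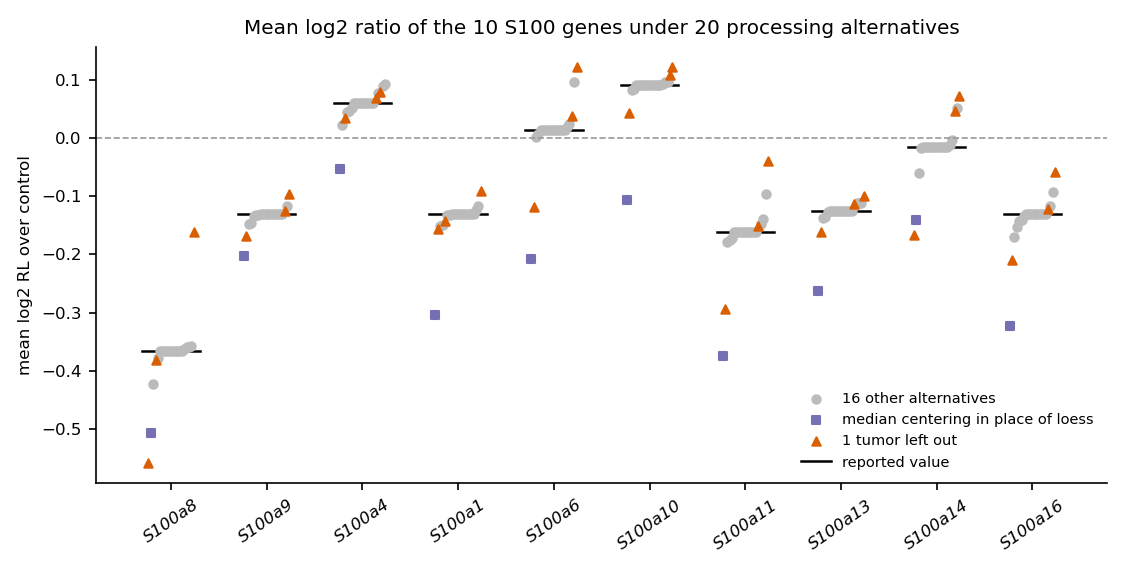
Mean log2 ratio of RL over control (y axis) of each S100 gene (x axis) under the reported processing (black bar) and under 20 alternatives (points). Leaving out a tumor (orange triangles) moves S100a8 between −0.56 and −0.16, and median centering in place of loess (purple squares) puts all 10 genes below 0 while the median of all genes is at −0.11.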

How the data were processed

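RNA of 3 PyMT tumors, with and without RL, was read on 3 arrays. The authors read spots with Agilent Feature Extraction 10.7.3.1 and deposited intensities of spots and local background, uncorrected, together with processed intensities and log10 ratios of Cy5 over Cy3. The authors also deposited normalized log2 ratios, described in their methods as condition over control. The values in the table followed Cy5 over Cy3, and had a slope of 1.15 to 1.17 and Pearson's r of 0.956 to 0.963 over genes against the ratios computed here once the dye order was turned.

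In R 4.3.3 with limma 3.58.1 (scripts checked on simulated input), median intensities were corrected by normexp (offset 50), normalized by intensity loess, spatial loess (span 0.1) and Aquantile, and turned to log2 RL over control. The offset compresses ratios of dim genes. Marked outlier spots were left out. Probes were named through RefSeq of GRCm38.p6 (28026 of 55681 matched). A probe was kept if all 3 RL or all 3 control channels were well above background (29431 probes), and the brightest stood for a gene. The ratio, which pairs the cultures of a tumor by array, was tested by moderated t (degrees of freedom: 2 residual, 6.91 prior), with Benjamini-Hochberg adjustment over all genes. Level means normalized log2 intensity, compared between tumors within a probe; summed levels add the probes of a list. The 20 alternatives varied the test, processing and filter, or left out a tumor. The members and lists were chosen with earlier results of these data known.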

Additional observations from a re-analysis of the deposited data

How the results depend on the processing

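Over 20 alternatives, the 10 S100 genes had 200 log2 ratios, of which 97 were the reported value itself, because the setting does not touch the ratio of that gene. Of the other 103, 95 kept their sign and their side of the adjusted p of 0.05, 7 changed sign and 1 passed the threshold. Median centering in place of loess gave −0.053 for S100a4, −0.21 for S100a6 and −0.11 for S100a10, and moved the median of the 10 members from −0.13 to −0.24, beside a median of all genes of −0.11. The scanner software's processed signals gave 0.052 for S100a14. With each tumor left out in turn, S100a6 ran from −0.12 to 0.12, S100a14 from −0.17 to 0.072, S100a11 from −0.29 to −0.039, S100a16 from −0.21 to −0.058, S100a10 from 0.044 to 0.12, S100a4 from 0.034 to 0.080, the median of the members from −0.11 to −0.049, S100a8 and S100a9 minus the epithelial S100 genes from −0.32 to −0.01, and the number of members past the threshold from 0 to 1. The causes were not tested.

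Of all genes, 1 was called higher and 5 lower. These counts were 36 and 51 by rank product, 7 and 12 under robust moderation, 99 and 130 when a dye term was fitted, 6 and 12 without background correction, 12 and 28 under an intensity trend, 6 and 11 with an offset of 10, 2 and 7 with the authors' log2 ratios, 1 and 9 in a fit on probes, 0 and 3 without a filter, and 0 and 5 with all 6 channels above background. They were 0 and 0 with median centering, with processed signals and without pairing by tumor, and with a tumor left out they ran from 0 to 494 higher and from 2 to 793 lower. The fits without a tumor and the fit with a dye term have 1 residual degree of freedom each. The level of S100a9 in tumor 1 differed from tumor 2 by −2.62, by −2.76 without background correction, −2.90 with an offset of 10 and −3.00 with processed signals, settings chosen after seeing the data.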

Other observations

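Levels of S100a9 and S100a14 were compared between tumors with 1 array each, and were not tested. S100a4, S100a9, S100a13, S100a14 and S100a16 have several RefSeq transcripts, and their probes carry the accession of 1 of them. Probe sequences were not used here, so signal from related transcripts was not examined.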
